A study of Mus musculus with 3 samples.

Results

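The 9 genes described here are the T cell coreceptors *Cd4*, *Cd8a* and *Cd8b1*, the surface receptors *Cd5*, *Cd2*, *Cd27* and *Cd28*, and the intracellular proteins *Themis* and *Arpp21*. They were chosen by symbol from the 54838 genes listed with the counts as coreceptors and surface or signalling genes of thymocyte maturation. All 9 were detected in every section. They were measured in thymus sections of 3 female C57BL/6 mice, captured on slides of barcoded spots. A unique molecular identifier (UMI) on each captured transcript keeps copies of it from being counted again. The sections are called KO1134, KO1308 and WT1101. Mouse KO1134 was *Trp53*-/- (KO) and 17 weeks old, mouse KO1308 was *Trp53*-/- and 21 weeks old, and mouse WT1101 was *Trp53*+/+ (WT) and 17 weeks old. No group received a treatment. The study calls the KO thymus of its spatial analysis pre-neoplastic. Its sample list describes a KO section under the name KO1308, but the size and depth given there are near those of the section labelled KO1134 in the deposited data, so it is uncertain which KO section belongs to which mouse and age. The names here are those of the labels, and both mice are KO.

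Thymocytes begin without coreceptors, then carry CD4 and CD8 together as double positive cells of the cortex, and after selection keep either of them and move to the medulla. CD4 binds MHC class II and CD8, a dimer of the chains encoded by *Cd8a* and *Cd8b1*, binds MHC class I, and both bring the kinase Lck to the T cell receptor. CD5 dampens receptor signalling and rises with its strength, THEMIS tunes signalling during selection, and *Arpp21* encodes an RNA-binding protein abundant in immature thymocytes. CD2 is an adhesion receptor for CD48, CD27 is the receptor of CD70, and CD28 is the costimulatory receptor of CD80 and CD86.

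UMIs of neighbouring spots were added up to bins 27 µm wide, and bins with at least 300 detected genes that belonged to tissue were kept: 12009 in KO1134, 16140 in KO1308 and 27104 in WT1101, with a mean of 2591, 1090.0 and 1497 UMIs. Cortex and medulla were drawn from 6 cortical and 12 medullary epithelial genes, none of them a T cell gene, in the window of 7 × 7 bins around each bin. Levels are counts per 1000000 UMIs of the same bins (CPM), which divides out the depth of the kept bins. Depth can still enter through the choice of bins. The kept bins held 31120116 of 31237062 UMIs in KO1134, 17585464 of 21089885 in KO1308 and 40575395 of 41581477 in WT1101. *Trp53* was at 14.2 CPM in cortex bins of KO1134, 24.0 CPM in KO1308 and 83.0 CPM in WT1101. The cortical epithelial genes, which helped to define the areas, summed to 2394 CPM in cortex of both KO sections and 2367 CPM in WT1101. The medullary epithelial genes, which did so too, summed to 188, 465 and 134 CPM in cortex and 1014.5, 1624 and 637 CPM in medulla of KO1134, KO1308 and WT1101. The 3 CD3 genes, which mark T cells, summed to 618, 937 and 1484 CPM in cortex, in the same order, and each of the 3 was lower in both KO sections. Macrophage markers summed to 661, 459 and 278 CPM, plasma cell markers to 497, 905 and 142 CPM, and adipocyte markers to 269.6, 438 and 105 CPM. Fibroblast markers summed to 198, 188 and 106 CPM, dendritic cell markers to 71.4, 35.3 and 20.1 CPM and B cell markers to 50.9, 64.1 and 30.6 CPM, so all of these were higher in cortex of both KO sections, with no marker at 0. Their part in the results below was not tested. A lower CPM of a T cell gene can mean fewer T cells in a bin or less RNA per T cell, and these cannot be told apart from CPM alone. Permeabilisation of the tissue differed with genotype, so the 2 cannot be told apart either. Brackets give exact 95% intervals for counting error only. With 2 KO sections and 1 WT section no permutation of the labels can give a p below 0.333.

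*Cd8a* (ENSMUSG00000053977; GRCm38, chr6:71373427-71379173, plus strand) and *Cd8b1* (ENSMUSG00000053044; chr6:71322788-71337494, plus strand) lie side by side, and *Cd4* (ENSMUSG00000023274; chr6:124864692-124888221, minus strand) and *Cd27* (ENSMUSG00000030336; chr6:125232622-125237010, minus strand) share their chromosome. *Cd5* (ENSMUSG00000024669) is at chr19:10717116-10739002 and *Cd2* (ENSMUSG00000027863) at chr3:101275899-101287939, both on the minus strand. *Cd28* (ENSMUSG00000026012) is at chr1:60716800-60773359 and *Themis* (ENSMUSG00000049109) at chr10:28668360-28883818, both on the plus strand, and *Arpp21* (ENSMUSG00000032503) is at chr9:112065091-112235938 on the minus strand. All are annotated as protein coding. RefSeq promoters on GRCm38.p6, from 250 bases before to 50 bases after a start, were at hand for *Cd8a*, *Cd5*, *Cd27*, *Themis* and *Arpp21*. The promoters of *Cd8a*, *Cd5* and *Themis* are shown because their genes stood differently in cortex of the KO sections: *Cd8a* was far below WT, *Themis* less so and *Cd5* least. They cover chr6:71373177-71373476 (plus strand), chr19:10738925-10739224 (minus strand) and chr10:28668110-28668409 (plus strand), each 5′ to 3′. Capitals mark CANNTG, the letters of an E-box, which read the same on both strands.
Cd8a: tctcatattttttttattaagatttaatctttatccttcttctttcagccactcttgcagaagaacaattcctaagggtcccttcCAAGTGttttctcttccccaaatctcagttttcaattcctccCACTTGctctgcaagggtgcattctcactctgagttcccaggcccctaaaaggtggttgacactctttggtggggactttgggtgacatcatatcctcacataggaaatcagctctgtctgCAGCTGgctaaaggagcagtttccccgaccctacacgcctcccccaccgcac
Cd5: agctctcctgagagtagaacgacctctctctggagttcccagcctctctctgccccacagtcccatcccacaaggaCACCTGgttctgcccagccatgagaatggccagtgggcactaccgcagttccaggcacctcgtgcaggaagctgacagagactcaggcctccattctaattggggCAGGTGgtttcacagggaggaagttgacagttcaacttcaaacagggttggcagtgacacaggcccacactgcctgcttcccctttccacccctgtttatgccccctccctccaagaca
Themis: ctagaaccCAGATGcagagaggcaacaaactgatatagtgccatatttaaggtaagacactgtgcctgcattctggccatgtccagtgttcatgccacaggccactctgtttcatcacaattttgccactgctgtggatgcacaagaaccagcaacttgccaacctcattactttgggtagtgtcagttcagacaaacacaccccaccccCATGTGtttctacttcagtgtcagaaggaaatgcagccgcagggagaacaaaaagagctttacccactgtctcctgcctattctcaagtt
The *Cd8a* promoter held 3 such matches and those of *Cd5* and *Themis* 2 each, where 72.3% of 32851 promoters held at least 1. TGTGGT, the letters of a Runx site, and CTTTGA, the letters of a TCF site, were searched on both strands without a match in the 3 windows, and 16.8% and 16.0% of all promoters held them. A match of these letters is not a binding site.

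The coreceptor genes were the most reduced of the 9 in cortex of KO1134. *Cd8a* had 63.2 CPM (59.2 to 67.4) in cortex of KO1134, 816 CPM (796 to 837) in KO1308 and 1959.5 CPM (1938.7 to 1980.5) in WT1101. *Cd8b1* had 26.2, 663 and 1213 CPM in the same order. Both CD8 genes thus stood in the same order in the sections, with KO1134 far below KO1308 and KO1308 below WT1101. *Cd4* had 25.4 CPM (22.9 to 28.1) in KO1134, 259 CPM (248 to 271) in KO1308 and 262 CPM (254 to 269) in WT1101. *Cd4* was therefore low in cortex of KO1134 only, and the KO1308 and WT1101 intervals overlapped. As a ratio to WT1101, *Cd8a* was 0.0323 in KO1134 and 0.416 in KO1308, *Cd8b1* 0.0216 and 0.546, and *Cd4* 0.0971 and 0.992.

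**Figure D1:**
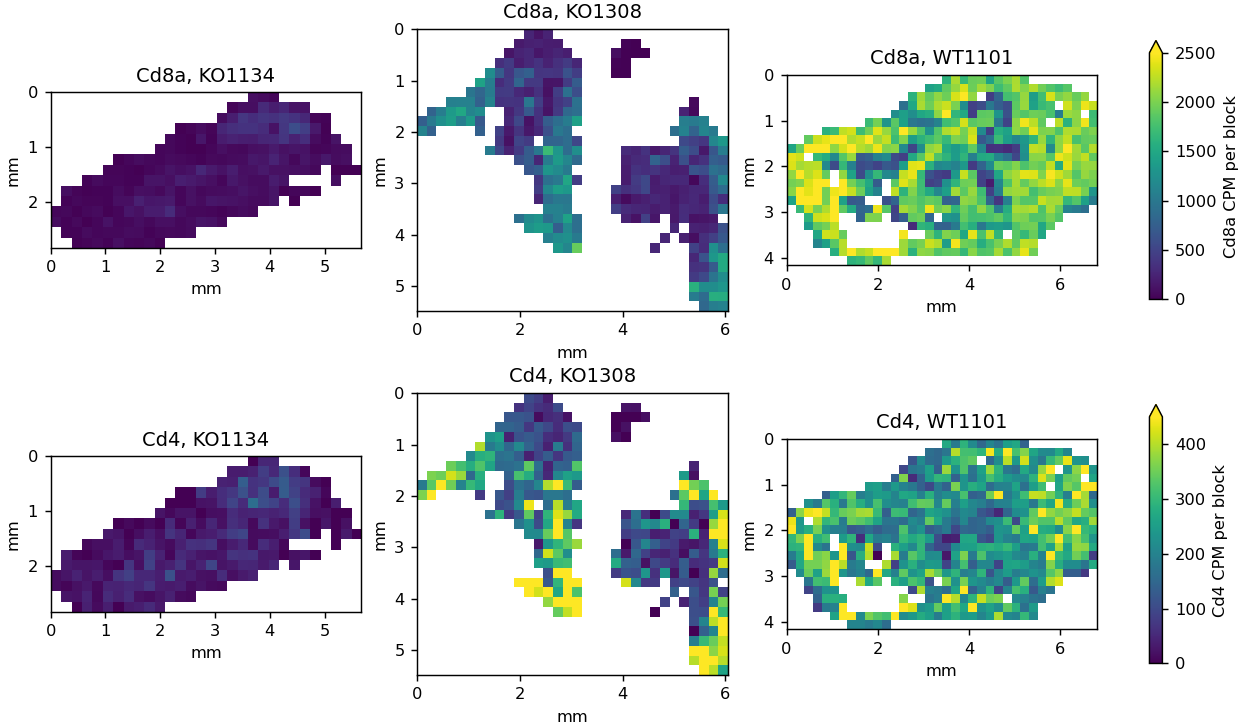
Maps of *Cd8a* (top) and *Cd4* (bottom) in the 3 sections, in blocks of 7 × 7 bins of 27 µm with at least 25 kept bins, with axes in mm and colour giving CPM on 1 scale per gene. *Cd8a* was low throughout KO1134, where the highest of 247 blocks had 590.3 CPM, and WT1101 had a median of 1891 CPM.

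In medulla the same order held for all 3 coreceptor genes. *Cd8a* had 117 CPM in KO1134, 376 CPM in KO1308 and 1313 CPM in WT1101. *Cd8b1* had 48.9, 310.5 and 792 CPM, and *Cd4* had 46.7, 135 and 232 CPM. Unlike in cortex, *Cd4* of KO1308 was also below WT1101 in medulla, at 0.580 (0.534 to 0.630) of its level. In medulla of KO1134 *Cd28* and *Arpp21* were, at 0.188 and 0.192 of WT1101, about as low as *Cd4* at 0.201 (0.179 to 0.224). Blocks of 7 × 7 bins gave the spread inside a section. *Cd8a* had a median of 80.4 CPM over 247 blocks of KO1134, 472 CPM over 331 blocks of KO1308 and 1891 CPM over 577 blocks of WT1101. None of the KO1134 blocks and 1 of the KO1308 blocks reached the WT median, and 34 KO1134 blocks reached the lowest WT block, at 194 CPM. For *Cd4*, 0 blocks of KO1134 and 116 of KO1308 reached the WT median of 252 CPM. Blocks of a section are not replicates.

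The *Cd8a* and *Cd8b1* UMIs of KO1134 were densest in bins that were neither cortex nor medulla. There *Cd8a* had 215 CPM, *Cd8b1* 191 CPM and *Cd4* 61.2 CPM, each above its level in both areas of the same section. These bins also had 577 CPM of the 3 B cell markers, against 50.9 CPM in cortex and 154 CPM in medulla of KO1134, and their cortical epithelial genes were at 335 CPM. *Cd8b1* UMIs per *Cd8a* UMI were 0.891 (0.833 to 0.952) in them, against 0.415 (0.367 to 0.468) in cortex and 0.418 (0.370 to 0.471) in medulla. In KO1308 the quotient was 0.812 in cortex and 0.826 in medulla, and in WT1101 it was 0.619 and 0.603. So between cortex and medulla the balance of the CD8 chains hardly moved in any section. In bins that were neither, it was 0.807 in KO1308 and 0.607 in WT1101, near the areas of the same section. In KO1134 alone it differed between bins inside and outside the epithelial areas.

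**Figure D2:**
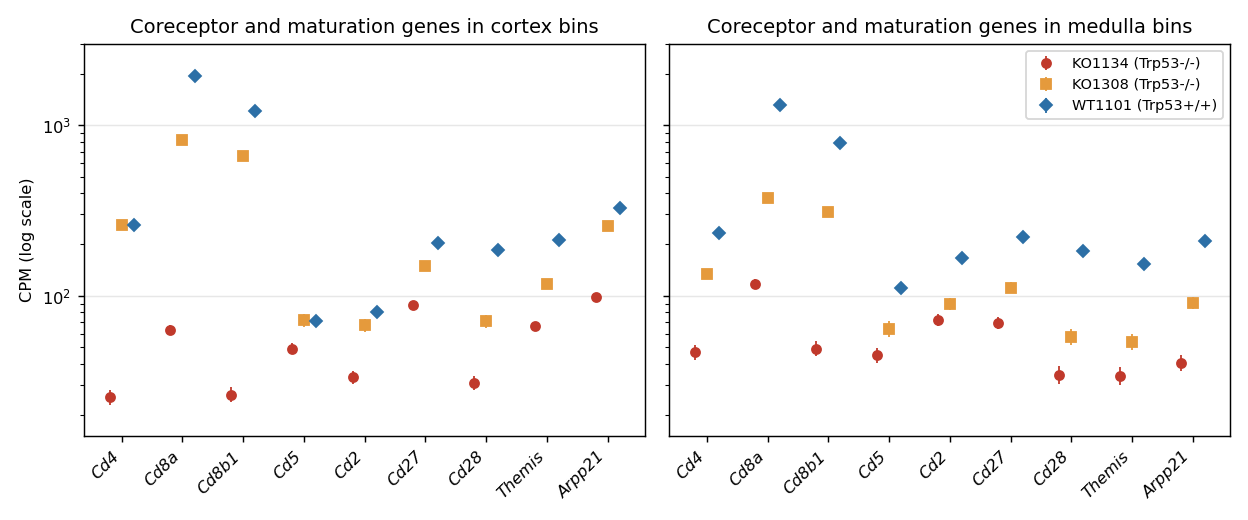
CPM (log scale) of the 9 genes in cortex (left) and medulla (right) of each section, with exact 95% Poisson intervals for counting error. KO1134 was lowest for every gene in both areas, and the CD8 genes had the widest gaps, from 63.2 to 1959.5 CPM for *Cd8a* in cortex.

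The balance of *Cd8a* to *Cd4* separated both KO sections from WT1101. In cortex there were 2.49 (2.20 to 2.81) *Cd8a* UMIs per *Cd4* UMI in KO1134, 3.15 (2.99 to 3.31) in KO1308 and 7.49 (7.26 to 7.73) in WT1101. In medulla the values were 2.51 (2.22 to 2.84), 2.79 (2.57 to 3.03) and 5.65 (5.39 to 5.93). The quotient was thus lower in both KO sections in both areas, and the gap between KO1134 and KO1308 was small beside the gap to WT1101, although *Cd8a* itself differed widely between the KO sections. It is set between sections only, since counts of different genes are not on a common scale of transcripts. On the log2 scale the mean of the KO sections was below WT1101 by 1.42 ± 0.24 (SD, n = 2) in cortex and by 1.10 ± 0.11 in medulla, with no test.

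Kept bins of the epithelial areas were also set in 5 classes by the medullary share of the epithelial signal, from most cortical to most medullary. In WT1101 the quotient fell from class to class, from 7.98 through 7.50, 6.90 and 6.02 to 3.55. In KO1308 it stayed between 3.24 in the most cortical and 2.76 in the most medullary class. In KO1134 it was 2.69, 2.38, 2.12, 2.25 and 3.28. Only in the most medullary class did the 3 sections therefore stand close together. In each of the other classes both KO sections were far below WT1101, also in class 4, with 2.25 in KO1134, 2.89 in KO1308 and 6.02 in WT1101. The level of *Cd8a* ran in opposite directions: it went from 969 to 245 CPM between the first and the last class in KO1308 and from 1891 to 649 CPM in WT1101, but from 52.6 to 161 CPM in KO1134. Between the same classes *Cd4* went from 299 to 88.7 CPM in KO1308, 237 to 183 CPM in WT1101 and 19.5 to 49.2 CPM in KO1134.

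**Figure D3:**
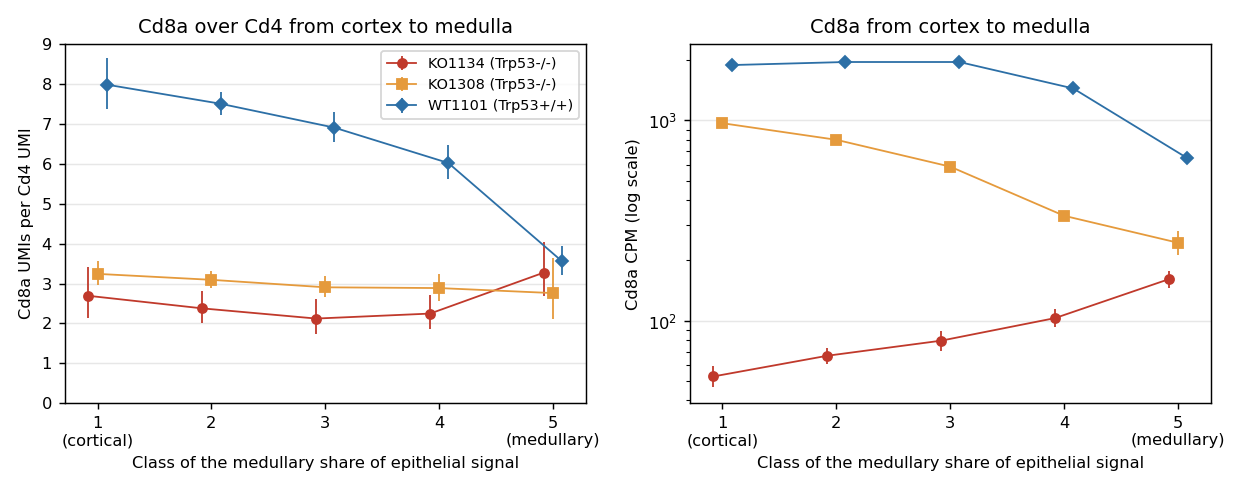
*Cd8a* UMIs per *Cd4* UMI (left) and *Cd8a* CPM on a log scale (right) in 5 classes from the most cortical to the most medullary bins, with exact 95% intervals for counting error. WT1101 fell from 7.98 to 3.55 on the left, the KO sections stayed between 2.12 and 3.28, and on the right KO1134 rose where the others fell.

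Detection in single bins was compared after every bin was thinned to 500 UMIs. *Cd8a* was found in 2.90% of 5180 thinned cortex bins of KO1134, 32.0% of 5513 of KO1308 and 61.1% of 9268 of WT1101. *Cd4* was found in 1.49%, 12.1% and 13.6% of these bins. Bins with both genes made up 0.0193% in KO1134, where it was 1 bin, 4.97% in KO1308 and 8.73% in WT1101. The CD3 genes were still found in 26.5% of KO1134 bins, against 35.8% and 51.5%. The thinning left out 36, 819 and 599 cortex bins, and the median bin had 2830.0, 1034 and 1638 UMIs before it. Without thinning, both genes were found in 1.02%, 15.5% and 31.5% of cortex bins. Bins rich in adipocyte transcripts outside cortex and medulla served as a background in the KO sections, and WT1101 had none with 500 UMIs. After thinning they had *Cd8a* in 0.749% (0.0908 to 2.68) of 267 bins of KO1134 and 4.01% (2.31 to 6.43) of 399 bins of KO1308. *Cd4* was in 0 of 267 such bins of KO1134, which allows a share of up to 1.37%, and in 3.01% of those of KO1308. A CD3 UMI was found in 32 of these 267 bins of KO1134 (8.34 to 16.5%) and in 22 of the 399 of KO1308 (3.49 to 8.23%), so they were not free of T cell RNA. Their median bin had 1013 and 1167 UMIs. The intervals of *Cd8a* and of *Cd4* in KO1134 cortex, 2.46 to 3.39% and 1.17 to 1.85%, overlapped those of this background at 500 UMIs. Without thinning they did not: *Cd8a* was in 13.7% (12.8 to 14.7) of KO1134 cortex bins and 2.58% (1.04 to 5.25) of its adipocyte-rich bins, and *Cd4* was in 6.33% (5.68 to 7.02) of the former and in 0 of 271 of the latter. The cortex bins had more UMIs, as given above. In KO1308 both genes were well above the background of that section after thinning too.

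In cortex of KO1134 the other 6 genes were reduced less than the coreceptors, from 0.166 of WT1101 for *Cd28* to 0.683 for *Cd5*. In cortex of KO1308 they ran from 0.384 to 1.00 and overlapped the range of the coreceptors. *Themis* had 66.3, 117 and 211 CPM in cortex of KO1134, KO1308 and WT1101, and *Arpp21* had 98.3, 255 and 329 CPM. *Cd28* had 30.7, 70.9 and 184.6 CPM. These 3 were in the same order as the CD8 genes. *Cd28* of KO1308 was, at 0.384 (0.350 to 0.421) of WT1101, about as low relative to WT as *Cd8a* at 0.416 (0.405 to 0.428). *Cd27* had 87.9, 149.6 and 205 CPM, *Cd2* had 33.3, 67.4 and 80.0 CPM, and *Cd5* had 48.8, 71.7 and 71.5 CPM. *Cd5* was the least changed gene in cortex, with a ratio to WT1101 of 0.683 (0.622 to 0.749) in KO1134 and 1.00 (0.905 to 1.11) in KO1308. In medulla all 6 were in the order KO1134, KO1308, WT1101: *Themis* at 33.8, 53.4 and 153 CPM, *Arpp21* at 40.3, 90.9 and 209.6 CPM and *Cd28* at 34.4, 57.6 and 183 CPM. *Cd27* was at 69.4, 112 and 219.6 CPM, *Cd2* at 72.4, 89.4 and 166 CPM, and *Cd5* at 44.6, 63.9 and 111 CPM. *Cd27* overlaps *Vamp1* on the other strand, and *Themis* and *Arpp21* overlap non-coding genes, so their counts are less certain where the counting did not use the strand, which is not given in the sources used here.

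In all, 8 of 9 genes were below 0.5 of WT1101 in cortex of KO1134 (all but *Cd5*), where 8.17% of 14071 genes with at least 100 UMIs were. In cortex of KO1308 it was 2 of 9, *Cd8a* and *Cd28*, beside 3.13% of 13453 genes. In medulla it was 9 of 9 in KO1134, beside 6.50% of 13121 genes, and 5 of 9 in KO1308 (*Cd8a*, *Cd8b1*, *Cd28*, *Themis* and *Arpp21*), beside 4.63% of 12911. None was above 2 times WT1101 in either section or area, where 12.3% and 11.6% of all genes were in cortex of KO1134 and KO1308 and 7.10% and 10.1% in medulla. The median ratio of the 9 genes was 0.299 in cortex of KO1134 and 0.729 in cortex of KO1308, and the medians over all genes were 0.994 and 1.06. The KO sections share their WT section, so their ratios are not independent of each other.

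None of the 9 genes passed edgeR's quasi-likelihood test of KO against WT in cortex, where 0 of 19545 genes (0.0% in each direction) had an adjusted p under 0.05, and 1332 genes (6.82%, with 4.57% higher and 2.25% lower), among them *Cd28* and *Themis*, had an unadjusted p under 0.05. DESeq2 called 66 genes higher (0.338%) and 12 lower (0.0614%) there, none of the 9. The edgeR log2 change was -2.36 ± 1.07 (SE) for *Cd8a*, -2.03 ± 1.26 for *Cd8b1*, -1.08 ± 0.99 for *Cd4* and -2.03 ± 0.53 for *Cd28*, with adjusted p between 0.718 and 0.820. The fit takes its 1 residual degree of freedom from the KO pair, whose members differed widely, and assumes that WT sections vary like them. In medulla edgeR called 0 genes higher and 1 gene of 18956 lower (0.0% and 0.00528%), not one of the 9, but all 9 were below WT with an unadjusted p under 0.05, where 1866 genes had one (9.84%, with 5.56% higher and 4.28% lower). There the log2 change was -2.51 ± 0.64 for *Cd8a*, -2.25 ± 0.84 for *Cd8b1*, -1.45 ± 0.57 for *Cd4*, -2.07 ± 0.41 for *Cd28* and -1.89 ± 0.40 for *Themis*, with adjusted p from 0.357 to 0.490 over the 9. DESeq2 called 48 genes higher (0.253%) and 39 lower (0.206%) in medulla, among the latter *Cd8a* (adjusted p = 0.00963), *Cd28* (0.0138) and *Themis* (0.0360).

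Counted per UMI of the CD3 genes, the 9 genes parted. The CD3 genes were taken to stand for the amount of T cell RNA in the bins, which was not tested. In cortex of KO1134 *Cd8b1* was at 0.0519 of the WT value, *Cd8a* at 0.0775, *Cd4* at 0.233 and *Cd28* at 0.399. *Arpp21* was at 0.718 and *Themis* at 0.753. *Cd2* at 0.999 and *Cd27* at 1.03 were close to WT, and *Cd5* was above it at 1.64. The coreceptors and *Cd28* were therefore low per unit of CD3 too, whereas *Cd2*, *Cd27* and *Cd5* were not. In cortex of KO1308 *Cd8a* was at 0.660 and *Cd28* at 0.608, *Cd8b1* at 0.865 and *Themis* at 0.878. *Cd27* was at 1.15, *Arpp21* at 1.23, *Cd2* at 1.33, *Cd4* at 1.57 and *Cd5* at 1.59. In that section *Cd4* and *Cd8a* thus lay on opposite sides of WT. In medulla *Cd8a* was at 0.203 in KO1134 and 0.540 in KO1308, *Cd4* at 0.458 and 1.10, and *Cd2* at 0.995 and 1.02. The CD3 genes did not fall together: in cortex of KO1134 *Cd3d* was at 0.310 of WT by CPM, *Cd3g* at 0.473 and *Cd3e* at 0.525. In cortex of KO1308 *Cd3e* had 288 CPM, against 305 CPM in WT1101, *Cd3d* 371 against 613 CPM and *Cd3g* 279 against 567 CPM. The values per CD3 UMI therefore shift with the gene taken, and the sides of WT given above hold for the sum of the 3 genes.

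**Figure D4:**
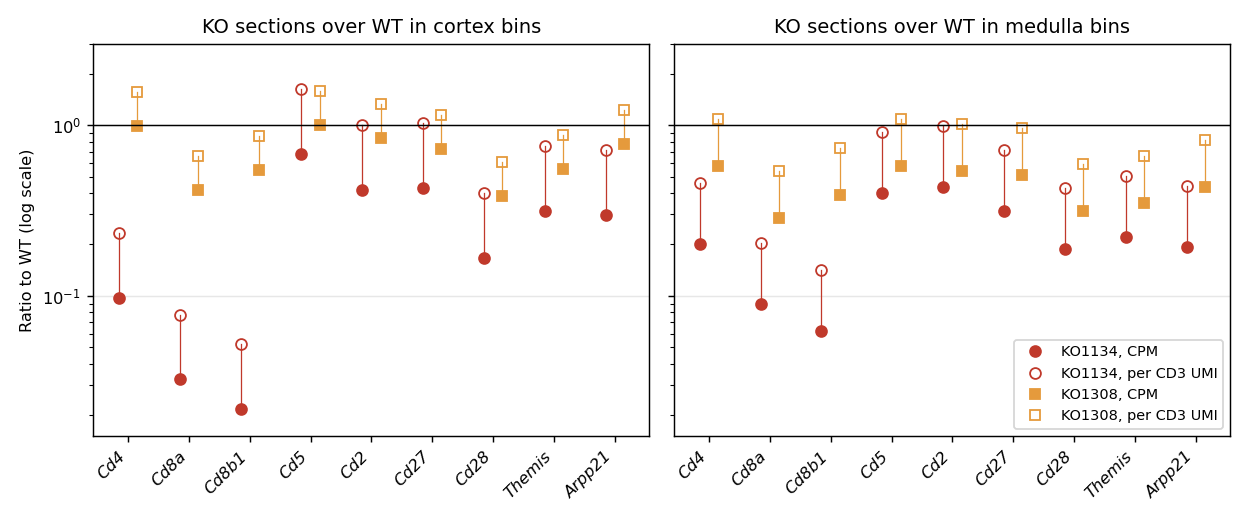
Ratio of each KO section to WT1101 (log scale, line at 1) in cortex (left) and medulla (right), from CPM (filled) and per CD3 UMI (open), for the 9 genes. In cortex of KO1134 the open symbols of *Cd5*, *Cd2* and *Cd27* reach 0.999 or more, and those of *Cd8a* and *Cd8b1* stay at 0.0775 and 0.0519.

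Cortex and medulla were compared within sections, with the section as a block. edgeR called 2432 of 18428 genes higher in cortex (13.2%) and 3610 lower (19.6%). *Arpp21* and *Themis* were higher in cortex, by 1.17 ± 0.14 (SE; adjusted p = 0.000336) and 0.88 ± 0.13 (adjusted p = 0.000740) on the log2 scale. *Arpp21* was 2.44, 2.81 and 1.57 times as high in cortex as in medulla of KO1134, KO1308 and WT1101, and *Themis* 1.96, 2.19 and 1.38 times. *Cd2* was lower in cortex, by -0.82 ± 0.14 (adjusted p = 0.00163), at 0.459, 0.754 and 0.482 of its medullary level. For these 3 genes all sections had the same direction. The other 6 did not pass: 3 of 9 genes were called, beside 32.8% of all genes, which is near the background.

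For the coreceptors, which did not pass, the sections ran in opposite directions. *Cd8a* in cortex was 0.540 (0.492 to 0.592) times its medullary level in KO1134, 2.17 (2.07 to 2.28) times in KO1308 and 1.49 (1.46 to 1.52) times in WT1101. *Cd8b1* was at 0.536, 2.14 and 1.53, and *Cd4* at 0.544, 1.93 and 1.13. KO1134 was thus the only section with the coreceptors higher in medulla. Without KO1134, edgeR called 6 of 9 genes, 5 of them higher in cortex, beside 16.0% of all genes higher and 16.2% lower, and *Cd8a* (log2 0.95 ± 0.14; adjusted p = 5.59e-05), *Cd8b1* (0.95 ± 0.13) and *Cd4* (0.65 ± 0.13) were among those higher in cortex. *Cd5* and *Cd27* showed another split: *Cd5* was at 1.09 and 1.12 in the KO sections and 0.646 (0.593 to 0.703) in WT1101, and *Cd27* at 1.27, 1.34 and 0.935. The test of this difference between genotypes, the interaction of area and genotype, called 22 of 19619 genes higher and 3 lower (0.112% and 0.0153%), none of the 9. Its log2 value was 0.72 ± 0.24 for *Cd5* (adjusted p = 0.486), 0.69 ± 0.23 for *Arpp21* (adjusted p = 0.501) and 0.42 ± 0.23 for *Cd27* (adjusted p = 0.951).

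The stage of the thymocytes was examined through 5 lists that hold none of the 9 genes. The double positive list (*Rag1*, *Rag2*, *Dntt*, *Aqp11* and *Endou*) summed to 1008 CPM in cortex of KO1134, 1703 CPM in KO1308 and 2658 CPM in WT1101. The genes of the list differed from each other. *Rag1*, which cuts receptor genes for rearrangement, had 50.5, 389.9 and 679 CPM. *Rag2* was at 0.0232 of WT in KO1134 and 0.441 in KO1308. *Dntt*, which adds bases at receptor junctions, had 606, 780.4 and 1206 CPM, at 0.502 and 0.647 of WT. *Rag1* and *Rag2* of KO1134 were thus as far below WT as the coreceptors, while *Endou* (0.378), *Dntt* and *Aqp11* (0.632) lay between *Themis* and *Cd5*.

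The early list (*Ptcra*, *Il2ra*, *Kit*, *Dtx1* and *Notch3*) was higher in the KO sections, with 409, 334 and 176 CPM in cortex. *Kit*, the stem cell factor receptor, was at 15.4 times WT in KO1134 and 6.08 times in KO1308, and *Il2ra*, the receptor chain CD25 of early thymocytes, at 4.77 and 1.67 times. *Ptcra*, which encodes the partner of the first receptor chain, was at 0.213 and 0.677, against the rest of the list. The mature list had 664, 359 and 169 CPM in cortex. Its *Il7r*, the receptor chain for interleukin 7, was at 5.29 times WT in KO1134 and 1.82 times in KO1308, and *Klf2*, a factor of mature T cells, at 3.31 and 2.22 times. The genes of this list differed too. The edgeR log2 change in cortex was 1.80 for *Ms4a4b* and 1.40 for *Ms4a6b*, but 0.15 ± 0.54 (SE) for *Ccr7* and 0.40 ± 0.57 for *S1pr1*. In medulla *Ccr7* (-0.45), *S1pr1* (-0.31) and *Klf2* (-0.25) were below WT. *Il7r* (0.53), *Ms4a4b* (0.81) and *Ms4a6b* (0.90) were above it there. In the selected list, which summed to 624, 299.9 and 511 CPM, *Runx3*, a factor of CD8 cells, was at 10.03 and 2.77 times WT and *Cd69* at 0.449 and 0.426. The regulatory list had 70.5, 63.9 and 73.7 CPM. The macrophage, plasma cell, adipocyte, fibroblast, dendritic cell, B cell and medullary epithelial markers were also higher in both KO sections, as given above, and their part in the higher lists was not tested.

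**Figure D5:**
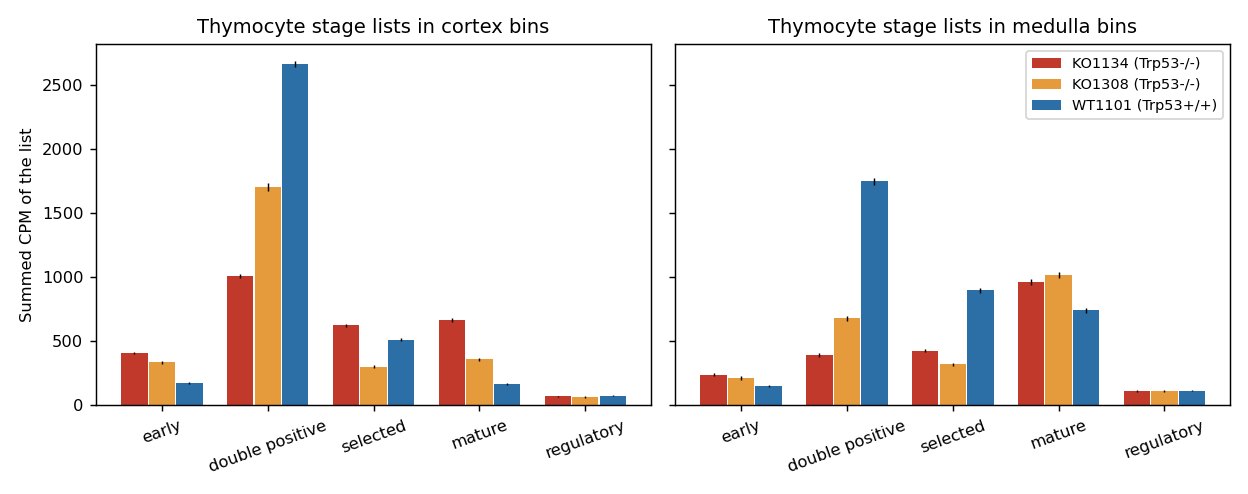
Summed CPM of 5 thymocyte stage lists in cortex (left) and medulla (right) of each section, as bars from 0 with exact 95% Poisson intervals for counting error. In cortex the double positive list goes from 1008 CPM in KO1134 to 2658 CPM in WT1101, and the early and mature lists run the other way.

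No gene of the 5 lists passed edgeR's test of KO against WT in either area. The double positive and mature lists were each shortened after their values were seen, so their counts are a description. In medulla 5 of 5 double positive genes were below WT at an unadjusted p under 0.05, beside the 4.28% of all genes given above, with a median log2 change of -1.53, where the median over all genes tested was 0.06. Of the selected list 4 of 6 genes were below WT and 1 above at this limit, of the early list 1 of 5 below and 2 above, and of the 16 partner genes of the receptors 5 below. The mature and regulatory lists had 0 such genes in medulla. In cortex, beside 4.57% of all genes higher and 2.25% lower, the double positive list had 0 of 5 such genes. Its median log2 change there was -0.95. The mature list had 3 of 6 genes above WT in cortex, the early list 1 of 5 above and the selected list 1 of 6 above and 1 below. The regulatory list had 0 in cortex, and 2 of the 16 partner genes were below WT. Between cortex and medulla, beside the 13.2% of all genes called higher in cortex and 19.6% called lower, 5 of 5 double positive genes were higher in cortex and 6 of 6 mature genes were lower, with medians of 1.11 and -1.52 on the log2 scale. The early list had 2 of 5 genes higher, the selected list 2 of 6 lower and the regulatory list 2 of 4 lower. Of the 16 partner genes, 3 were higher in cortex, *Lck*, *Cd3g* and *Lat*, and 5 lower, the ligands *Cd48*, *Cd70*, *Cd80* and *Cd86* and the receptor *Icos*. *Lck*, the kinase bound by CD4 and CD8, had 285, 723.5 and 926 CPM in cortex, at 0.307 and 0.782 of WT, and *Lat*, an adaptor below the receptor, had 1338, 1265 and 1673 CPM.

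Across blocks of a section, likeness to *Cd8a* was ranked among 6976 genes by the lowest Pearson r over the 3 sections. *Nsg2* (0.656) and *Cd8b1* (0.652) led with nearly the same value, followed by *Arl5c* (0.508), *Coro1a* (0.488) and *Ptprc* (0.483). *Nsg2* had the higher r of the pair in KO1134 (0.697), and *Cd8b1* in KO1308 (0.861 against 0.689) and WT1101 (0.846 against 0.656). For *Cd4* the first was *Cd8a*, with r of 0.573 over 247 blocks of KO1134, 0.741 over 331 of KO1308 and 0.469 over 577 of WT1101, followed by *Ptprc*, *Sf3b1*, *Srsf5* and *Satb1*. *Cd8a* and *Arpp21* varied together in KO1308 (r = 0.738) and WT1101 (r = 0.760) and oppositely in KO1134 (r = -0.378). *Cd8a* and *Cd2* varied together in KO1134 (r = 0.626) and, more weakly, in KO1308 (r = 0.241), and oppositely in WT1101 (r = -0.355). These are descriptions over blocks that share a library and differ in depth and cell types.

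Genes next to the coreceptors were examined after the values above were seen. Within 250 kb of *Cd8a*, 10 genes besides the CD8 genes had at least 100 UMIs in cortex of KO1134 and WT1101 together. Of these, *Rmnd5a*, 9.46 kb from *Cd8a*, was at 0.0877 of WT. *Gm44174* at 0.143 kb had 5 UMIs in KO1134 and 344 in WT1101, and *Gm44175* at 12.6 kb had 1 and 155. The other 7 lay between 0.406 and 2.06 of WT. Around *Cd4*, *Gpr162* at 0.709 kb was at 0.104 and the other 25 genes between 0.323 and 2.57. So a few genes close to *Cd8a* and *Cd4* were as low as the coreceptors, and most of the surrounding genes were not. The reads of close or overlapping genes may be split differently by another counting. Over whole chromosomes, the median log2 ratio of KO1134 to WT1101 in cortex was -0.26 on chromosome 6 (712 genes), which carries the coreceptor genes and *Cd27*. It was -0.25 on chromosome 1 (*Cd28*), -0.26 on chromosome 3 (*Cd2*), -0.27 on chromosome 9 (*Arpp21*), 0.26 on chromosome 10 (*Themis*) and 0.09 on chromosome 19 (*Cd5*). Over the 19 autosomes these medians ran from -0.36 to 0.37 in KO1134 and from -0.01 to 0.26 in KO1308. In KO1134 the medians of 6 autosomes were above 0.1 and those of 9 below -0.1, and in KO1308 6 were above 0.1 and 0 below -0.1. The part of these shifts in the ratios of the 9 genes was not tested.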

How the data were processed

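Sections from 3 mice were analysed, 2 KO and 1 WT. Reads were aligned and assigned to spots by the authors, who used BSTMatrix with STAR. The deposited values are raw UMI counts, whole numbers for each gene in each spot, beside spot positions. The build named in the submitters' processing notes is GRCm38, and GENCODE M21 of that build holds 99.79% of the gene identifiers. Whether the counting used the strand is not given in the sources used here. The authors' clustering was not used.

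Bins were 27 µm wide. Bins with at least 300 genes and at most 30% mitochondrial UMIs in connected groups of at least 200 bins were kept. A bin was cortex where the cortical epithelial list took at least its mean share of the section's UMIs in the surrounding window of 189 µm and exceeded the medullary list on this scale, and medulla in the reverse case. Total UMIs per section were 31237062 in KO1134, 21089885 in KO1308 and 41581477 in WT1101.

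Counts summed per section and area were tested with edgeR 4.0.16 (quasi-likelihood test, TMM, filterByExpr, Benjamini-Hochberg over all genes tested) in R 4.3.3, with all 3 sections in each fit. The area fit had the section as a block and 2 residual degrees of freedom. DESeq2 1.42.0 was an alternative. Intervals (exact Poisson, conditional binomial and binomial, 95%) came from scipy 1.17.1. The scripts were tested on simulated data, in which the genotype fits recovered few changed genes. Levels in blocks were compared on log2(CPM + 10), and genes with at least 500 UMIs in every section entered the likeness ranking. Alternatives changed the bin width, gene limit, window, area limit, lists, bins, scaling, filter and sections. Named genes are the 9 genes, genes of the stage, partner, area and marker lists, *Trp53* and the 5 genes most like *Cd8a* and *Cd4*, and neighbours of the coreceptors were added after values were seen. After the values were seen, 2 listed genes that are not reported here were left out, 1 each of the double positive and mature lists, for a reason other than their values. The genes and lists were chosen with earlier results of these data known.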

Additional observations from a re-analysis of the deposited data

How the results depend on the processing

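Ratios are given on the log2 scale, KO mean against WT. No paired analysis was possible because the WT group has 1 section and the replicate numbers do not link sections. The *Cd8a* to *Cd4* quotient of the KO sections stayed below WT under all alternatives run, at -1.42 in cortex, from -1.59 to -1.25 with either KO section left out, and at -0.98 as a quotient of shares of thinned bins, chosen after seeing the data. In medulla it was -1.10, from -1.17 to -1.02 with either KO section left out, -0.93 with *Ccl21a* and *Ccl19* in the medullary list, -1.26 in T bins only, -0.94 with an area limit of 1.5 and -0.65 from thinned shares. The median of the 9 genes per CD3 UMI in cortex, -0.14, did not keep its direction: it was 0.21 without KO1134 and -0.48 without KO1308, and -0.72 in T bins only. The median of the 9 genes by CPM ranged from -1.74 to -0.46 in cortex and from -2.32 to -1.21 in medulla with either KO section left out, and the double positive list from -1.40 to -0.64 in cortex.

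In the fit of KO against WT in cortex, 3 of the 9 genes (*Cd8a*, *Cd8b1* and *Cd28*) were called without a filter on low counts, against 0, beside 327 of 30943 genes higher and 125 lower. In medulla the count of 0 became 4 with bins of 20 µm (143 of 18880 genes higher and 187 lower), 2 with bins of 50 µm (66 and 91 of 18823) and 1 in T bins only (62 and 72 of 15400). It became 3 with DESeq2 (48 and 39 of 18956) and 5 without the filter (378 and 281 of 30682). The main count over all genes was 1. The count for cortex against medulla was 3 and became 6 without the filter, beside 3733 of 33572 genes higher and 3746 lower. With a section left out it was 3 to 6. It was 6 without KO1134, beside the shares of all genes given above, and 3 without KO1308 (1094 of 18476 genes higher and 2699 lower). Without WT1101 it was 4 (2225 of 17958 genes higher and 2682 lower), where *Cd27* was added. For the KO effect between areas it was 0 and became 1, *Arpp21*, with at least 500 genes per bin, beside 121 of 19661 genes higher and 19 lower. With the area limit taken from the WT mean, 6 of the 9 genes, not 9, had an unadjusted p under 0.05 in medulla in edgeR. There 1120 of 19911 genes had one, and the median log2 change of the 9 genes was -1.23 instead of -1.76. KO1308 then had 13163 medulla and 1734 cortex bins, against 6530 and 6332 in the main setting. The cause of these changes was not tested. With a KO section left out, the genotype fits had no residual degrees of freedom and were not run.

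Scaling to CD3 UMIs moved the median of all genes from 0.06 to 1.18 in cortex and from 0.06 to 1.17 in medulla. It left the 9 genes at a median of -0.15 in cortex and -0.67 in medulla. Leaving mitochondrial, ribosomal protein and immunoglobulin genes out of the total gave medians of -1.04 in cortex and -1.69 in medulla, and cannot change a quotient. In cortex *Cd5* was at 0.0045 without KO1134 and -0.55 without KO1308, and the selected list at -0.77 and 0.29. The regulatory list in medulla turned to 0.062 in T bins, 0.012 with at least 500 genes, 0.017 with bins of 20 µm and 0.0010 with a window of 11 × 11 bins. Of the values recomputed for single genes and lists, 841 were counted as kept and 26 passed the threshold only under the alternative. A further 18 moved by more than the spread and 6 turned. For a gene in a fit, kept means the same call, so a change of sign without a call was counted as kept. An example is *Cd5* in cortex, at -0.40 in the main fit and 0.69 when scaled to CD3 UMIs. Of the main values and counts, 121 were kept, 9 counts rose, 6 values moved and 1 turned. KO1134 had the most UMIs per bin of the 3 sections. Limits are the 1 WT section and bins that hold several cells.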
